A study of Saccharomyces cerevisiae with 18 samples.

Results

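The starting state of both double-degron strains was compared, without auxin, in 6 of the 18 newly synthesized RNA libraries of the series. These were the 3 DMSO libraries of Med16/Taf13-AID against the 3 DMSO libraries of Med16/Spt20-AID, read on the sense strand. Both strains are Saccharomyces cerevisiae of the W303 background, carry the W303 alleles of ADE2, CAN1, HIS3, LEU2, TRP1 and URA3, and express the rice F-box protein OsTIR1 from the GPD1 promoter at the leu2 locus. In each, MED16 (SIN4), a subunit of the Mediator tail, is fused to 3V5-IAA7. Med16/Taf13-AID also carries TAF13-3xHA-IAA7, a subunit of TFIID, and Med16/Spt20-AID carries SPT20-3xHA-IAA7, a core subunit of the coactivator SAGA, both with a histidine marker, given as HIS3MX6 for both in the study's methods and as HIS3 for SPT20 in its strain list. Cultures grown at 30 °C in YPD received DMSO at 1:2000 by volume for 30 min and were labelled with 4-thiouracil for 6 min, and the labelled RNA was purified and sequenced. OsTIR1 recruits IAA7-tagged proteins for degradation when auxin is present, so in the DMSO libraries the tagged subunits had not been deliberately depleted, and their protein levels are not part of the files used here. Each group is 1 strain in biological triplicate, with no untagged parent in the comparison. The libraries of Med16/Taf13-AID carry another sequencing project code than those of Med16/Spt20-AID, so strain and sequencing run cannot be told apart in anything below.

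Mediator, SAGA and TFIID are coactivators that connect DNA-bound activators to RNA polymerase II: SAGA and TFIID both deliver TBP to promoters, and the Mediator tail is the part that activators contact. Inducible genes of stress, nutrient and metabolic regulons are the best known users of SAGA and the tail in yeast. In the experiment the DMSO libraries are the reference against which each depletion is read, and a 6-min label weights them towards transcription during the label rather than towards stored RNA.

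The Med16/Taf13-AID libraries held 1947787 to 2366418 sense reads assigned to genes and the Med16/Spt20-AID libraries 4209319 to 6189719. The first principal component took 84.1% of the variance and separated the strains, and correlations of log2 values were at least 0.985 within a strain and at most 0.939 between strains. Levels are given as normalized CPM, the reads of a gene scaled by TMM to a library of 1000000 reads, differences as log2 fold changes, Med16/Taf13-AID minus Med16/Spt20-AID, and a gene is called at an adjusted p under 0.05. With the S. pombe spike-in factors of the study in place of TMM, the median gene moved from -0.02 to -0.34, so every difference below is relative to the other genes of the library and not an amount per cell.

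**Figure D1:**
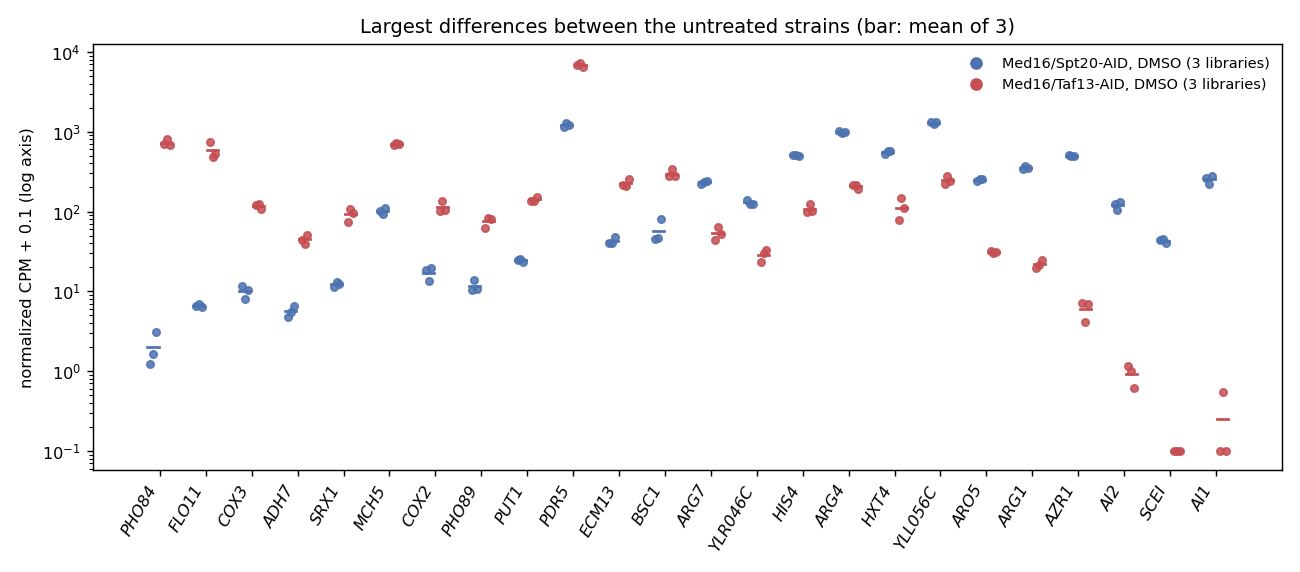
Normalized CPM plus 0.1, on a log axis, of the 12 largest increases and 12 largest decreases in each of the 6 DMSO libraries (points; bars are means of 3). PHO84 sits between 673 and 804 CPM in Med16/Taf13-AID and between 1.13 and 2.97 in Med16/Spt20-AID. Only genes without overlap between the strains could enter this choice, so their separation here is not a finding.

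Promoters of some genes of the phosphate regulon and of amino acid biosynthesis are shown first. They were picked from these lists, and not all are among the 12 largest increases or decreases. The sequences below are R64 genome sequence 5′ to 3′ on the strand of the gene, upstream of its annotated start. Capitals mark CACGTG, the core bound by Pho4 and Cbf1, in PHO84 (chrXIII:26179-26300, minus strand), SPL2 (chrVIII:375101-375260, minus strand) and VTC3 (chrXVI:517294-517453, minus strand), which were higher in Med16/Taf13-AID. In ARG1 (chrXV:218743-218902, plus strand), ARG4 (chrVIII:141545-141704, minus strand) and HIS4 (chrIII:68496-68655, minus strand), which were lower, they mark TGACTCA, the site of Gcn4.
PHO84: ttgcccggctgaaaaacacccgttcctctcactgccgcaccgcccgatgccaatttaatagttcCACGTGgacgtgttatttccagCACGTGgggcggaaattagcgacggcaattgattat
SPL2: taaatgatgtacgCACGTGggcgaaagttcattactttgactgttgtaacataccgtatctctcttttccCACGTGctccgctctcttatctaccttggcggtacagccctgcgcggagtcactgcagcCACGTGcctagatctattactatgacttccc
VTC3: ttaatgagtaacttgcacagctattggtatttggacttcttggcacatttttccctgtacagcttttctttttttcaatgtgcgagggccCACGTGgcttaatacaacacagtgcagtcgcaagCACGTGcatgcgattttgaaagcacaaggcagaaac
ARG1: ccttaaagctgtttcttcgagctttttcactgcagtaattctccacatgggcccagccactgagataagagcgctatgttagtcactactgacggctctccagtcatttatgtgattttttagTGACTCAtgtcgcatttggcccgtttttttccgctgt
ARG4: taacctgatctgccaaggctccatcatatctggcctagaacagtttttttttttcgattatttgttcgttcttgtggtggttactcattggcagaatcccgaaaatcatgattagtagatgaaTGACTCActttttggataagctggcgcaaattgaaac
HIS4: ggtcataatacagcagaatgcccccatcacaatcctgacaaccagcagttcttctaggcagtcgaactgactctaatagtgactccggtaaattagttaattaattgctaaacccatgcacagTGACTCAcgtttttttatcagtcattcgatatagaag
In the 500 bases before the start, counting either strand, CACGTG was present in 12 of the 15 promoters of the phosphate regulon and in 6.31% of the 5484 promoters of all tested genes. It was in 15.1% of the 126 promoters of genes called at least 2-fold higher and in 11.6% of the 121 promoters of genes called at least 2-fold lower. TGACTCA was in 51.6% of the 62 promoters of amino acid biosynthesis genes and in 4.23% of all. It was in 22.3% of the promoters at least 2-fold lower and in 3.17% of those at least 2-fold higher. These are matches of letters and not measured binding.

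Across the genome the untreated strains differed at many genes, mostly by small amounts. Of 5577 genes tested, 1502 were higher (26.9%) and 1443 lower (25.9%) in Med16/Taf13-AID, 52.8% in either direction, and these shares are the background for every count of list members below. At least 2-fold differences were called for 137 genes higher (2.46%) and 130 lower (2.33%). The libraries of the strains did not overlap at 3298 of the genes tested (59.1%). Lack of overlap at a gene named below is therefore a common trait, and the largest increases and decreases were also chosen for it. The middle 50% of log2 fold changes lay between -0.27 and 0.26. No nuclear chromosome had a median beyond -0.13, the value of chromosome VI, and the others lay between -0.06 and 0.02. Each had calls in both directions, in uneven numbers. Chromosome XII had 162 genes higher and 100 lower, VI had 25 and 40, and VII had 112 and 147. Neighbouring genes at least 2-fold different in the same direction formed 14 runs with 29 genes, none longer than the 3 genes ENB1, IMA2 and HXT11 on chromosome XV. The call of HXT11 was lost with DESeq2's test (adjusted p = 0.0629), without replicate 1 of Med16/Spt20-AID (-0.98) and without replicate 2 or 3 of Med16/Taf13-AID (-1.26 and -1.18). HXT11, and PRM7 below, were named for their position.

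Genes of phosphate starvation were the most strongly raised group. Under phosphate limitation Pho4 induces transporters, phosphatases and the polyphosphate polymerase, and in rich medium these genes are normally low. In Med16/Taf13-AID 14 of the 15 tested members were higher and 0 lower, and the median log2 fold change was 1.97, where that of all genes was -0.02. PHO84 (YML123C, chrXIII:24037-25800), the high-affinity phosphate transporter, stood at 705, 804 and 673 CPM in Med16/Taf13-AID and at 1.13, 1.55 and 2.97 in Med16/Spt20-AID. All 3 libraries of the first strain lay far above all 3 of the second, where the gene had only 5, 8 and 19 reads. The log2 fold change was 8.49 (SE 0.15, adjusted p = 3.87e-23). PHO89, a sodium-coupled phosphate transporter, had 62.1, 82.5 and 80.9 CPM against 10.4, 13.8 and 10.6, and PHO5, the secreted acid phosphatase, had 56.2, 76.7 and 69.0 against 12.6, 15.5 and 16.9. For neither gene did the strains overlap, and the log2 fold changes were 2.70 (SE 0.15) and 2.15 (SE 0.15).

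The same direction held through the rest of the regulon, whose remaining members were chosen for naming after their values had been seen. SPL2, which in yeast limits the low-affinity transporter Pho87, averaged 18.7 CPM against 0.584 (log2 fold change 4.96), although its mean count of 20 is low and the log2 fold change was 5.61 without replicate 1 of Med16/Spt20-AID, over a range of 4.42 to 5.61 with 1 library left out. GIT1, a glycerophosphoinositol permease, rose by 2.14, and PHM8, a nucleotidase, by 2.05. The vacuolar polyphosphate polymerase subunits VTC3, VTC1, VTC4 and VTC2 rose by 1.66, 1.19, 0.93 and 0.58, and PHO81, the inhibitor of the Pho80-Pho85 kinase, by 1.15. PHO8, the vacuolar alkaline phosphatase, was the member that did not pass the test, at 0.09 (adjusted p = 0.34). PHO86, needed for Pho84 to leave the endoplasmic reticulum, was called at only 0.21, a call lost without replicate 1 of Med16/Taf13-AID (0.16) or replicate 1 or 2 of Med16/Spt20-AID (0.21 and 0.16), and at -0.11 with the absolute spike-in factors.

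**Figure D2:**
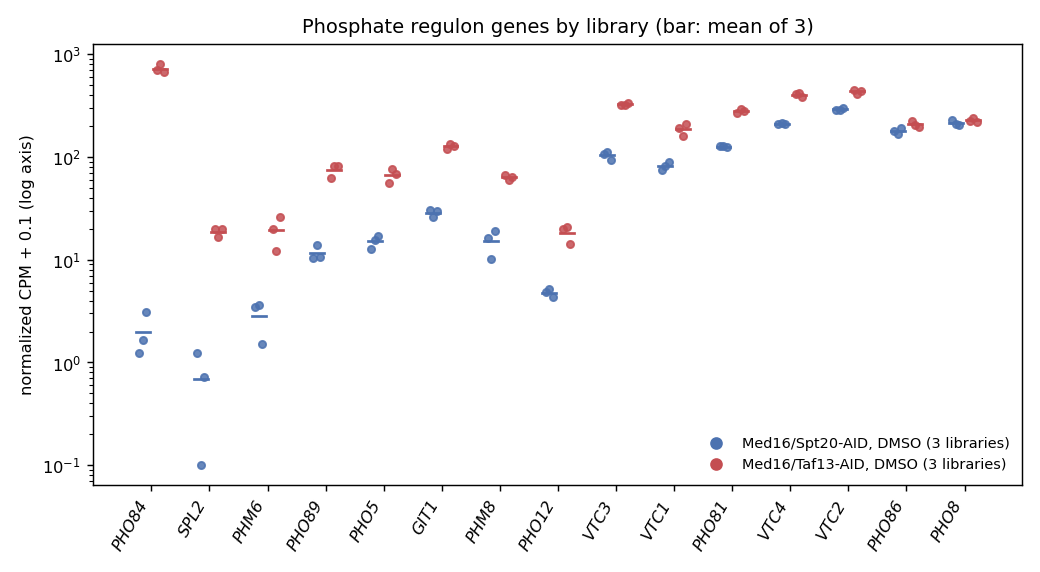
Normalized CPM plus 0.1, on a log axis, of the 15 tested phosphate regulon genes in each DMSO library (points; bars are means of 3), ordered by difference. The strains are furthest apart at PHO84, at 705, 804 and 673 against 1.13, 1.55 and 2.97 CPM, and come together at PHO86 and PHO8.

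Amino acid biosynthesis moved the other way, led by arginine. In yeast most of these genes are under the activator Gcn4, and those of arginine also under the ArgR/Mcm1 repressor complex. Of 62 members 43 were lower and 3 higher, with a median of -0.37. ARG1 (YOL058W, chrXV:219211-220473), argininosuccinate synthetase, had 19.3, 21.1 and 24.4 CPM in Med16/Taf13-AID and 341, 368 and 348 in Med16/Spt20-AID. ARG4, argininosuccinate lyase, had 214, 212 and 194 against 1019, 956 and 990, and HIS4, a histidine pathway enzyme, 99.1, 124 and 103 against 512, 507 and 494. Every library of Med16/Taf13-AID was below every library of Med16/Spt20-AID at each of these genes. The log2 fold changes were -4.03 for ARG1 (SE 0.11, adjusted p = 1.57e-19), -2.26 for ARG4 (SE 0.08) and -2.21 for HIS4 (SE 0.09). ARG7, the mitochondrial ornithine acetyltransferase, fell by 2.10.

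Other steps of the same pathway, named after their values were seen, were lower as well: ARG3 at -1.86, ARG56 at -1.39, ARG2 at -0.71 and ARG8 at -0.35. The call of ARG8 was lost without replicate 3 of Med16/Spt20-AID (-0.32), without replicate 1 of Med16/Taf13-AID (-0.31) and with DESeq2's test (adjusted p = 0.0605). CPA1, a subunit of the arginine-specific carbamoyl phosphate synthetase, went the opposite way at 0.70. ARG81, a subunit of ArgR/Mcm1 that neighbours TAF13, was at 0.12 (adjusted p = 0.25). Among genes of arginine and proline breakdown, CAR2, ornithine transaminase, had 35.4, 33.6 and 34.8 CPM against 1.80, 2.33 and 1.87 (log2 fold change 4.09, mean count 40), CAR1, arginase, was at 0.40, a call lost with a length and GC correction (0.22, adjusted p = 0.0689) and with the absolute spike-in factors (0.080), and PUT1, proline oxidase, had 137, 135 and 153 CPM against 24.8, 25.4 and 23.4. The PUT1 libraries were tightly grouped and did not overlap (log2 fold change 2.53, SE 0.11). CAR1 and CAR2 were also chosen after their values were seen. Over the whole list of nitrogen catabolite genes, 14 of 33 members were higher and 8 lower, with DAL7 at 1.19 and the activator GAT1 at 1.10 among the higher. LYS20, homocitrate synthase, was the most raised biosynthetic gene, at 0.93.

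The genes of ribosome production were higher in Med16/Taf13-AID by modest and very regular amounts. Ribosome biogenesis factors, which process rRNA and assemble subunits, had 114 of 117 members higher and 0 lower, with a median of 0.67 and a range from 0.06 to 1.43. DBP2, an RNA helicase, had 640, 609 and 676 CPM against 257, 238 and 222, and REA1, the assembly ATPase of the large subunit, had 1497, 1372 and 1475 against 611, 630 and 572. Both genes were separated in all 6 libraries, at 1.43 (SE 0.08) and 1.26 (SE 0.08), and FAF1, a factor of small subunit rRNA processing, was at 1.16. RNA polymerase I and III subunits were higher at 16 of 20 genes and lower at 0, led by the largest Pol I subunits RPA190 at 0.92 and RPA135 at 0.79, and by the Pol III subunit RPC82 at 0.73.

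Ribosomal proteins and translation factors shared the direction with smaller values. Small subunit proteins were higher at 44 of 56 genes and lower at 0 (median 0.32), large subunit proteins higher at 60 of 82 and lower at 3 (median 0.29), and translation factors higher at 24 of 32 and lower at 0 (median 0.29). With the absolute spike-in factors, which shift the median gene to -0.34, the medians of these 3 lists became 0.00, -0.04 and -0.03, and the members called higher fell to 3, 1 and 1. Biogenesis factors kept a median of 0.34 with 71 members higher on that scale. RPS7B (0.82), RPS17B (0.72) and RPS11B (0.63) led the small subunit, RPL6B (0.63) and RPL24B (0.58) the large, and TIF4631, the scaffold eIF4G1, the translation factors at 0.73. YEF3, the fungal elongation factor eEF3, had 4894, 5463 and 4609 CPM against 3122, 3204 and 3298, with no overlap between the strains. Paralogous ribosomal protein genes share sequence, and only uniquely mapped reads were counted, so the values of single paralogs are less certain. Mitochondrial ribosomal proteins gave a contrasting count, at 6 of 70 higher and 6 lower (median -0.02), with MRPL4 apart at 1.19.

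**Figure D3:**
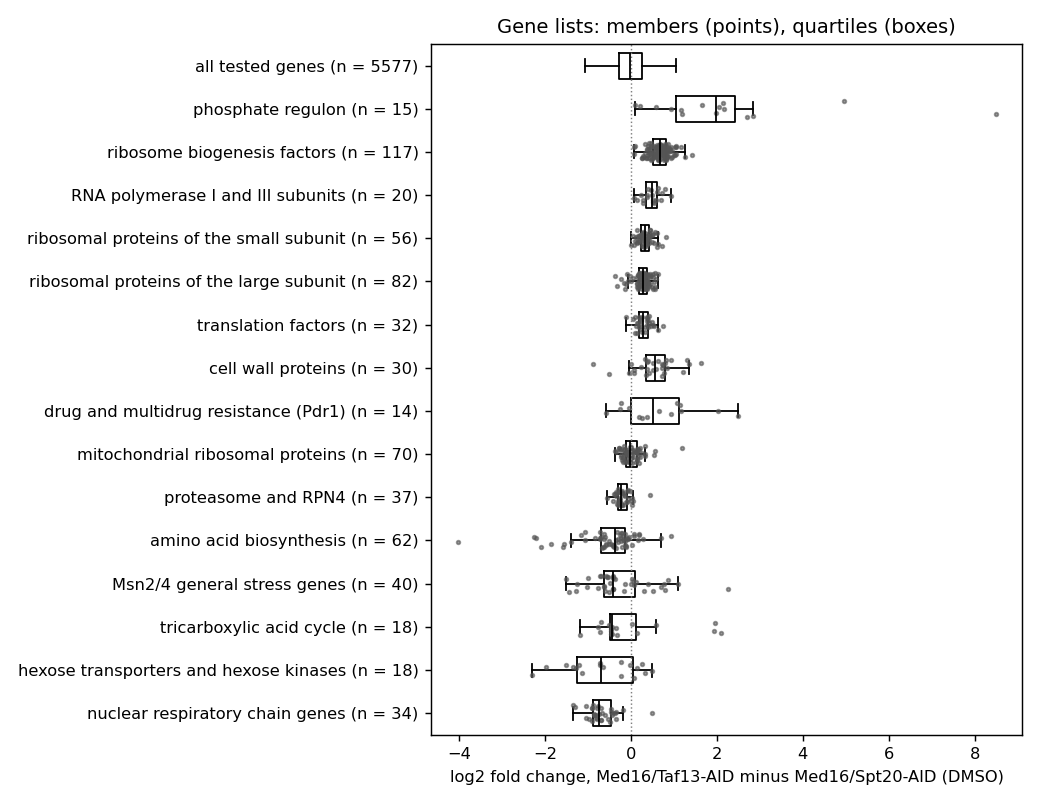
Log2 fold change, Med16/Taf13-AID minus Med16/Spt20-AID, of all tested genes and of the members of 15 lists (points; boxes are quartiles with the median, whiskers reach 1.5 box lengths). The medians run from 1.97 for the phosphate regulon to -0.75 for nuclear respiratory chain genes, with TMM scaling, and those of both ribosomal protein lists and of translation factors lie at 0.00, -0.04 and -0.03 with the spike-in factors.

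Nuclear genes of respiration were lower nearly without exception. Of 34 genes for subunits of the respiratory chain and the ATP synthase, 31 were lower and 1 was higher, with a median of -0.75. COX4, a subunit of cytochrome c oxidase, had 52.5, 56.1 and 50.8 CPM in Med16/Taf13-AID and 156, 120 and 134 in Med16/Spt20-AID. QCR10 of the cytochrome bc1 complex had 22.0, 34.5 and 25.9 against 64.7, 66.8 and 74.9. Neither gene overlapped between the strains, and the log2 fold changes were -1.35 (SE 0.11) and -1.31 (SE 0.14). QCR9 was at -1.06. The exception was NDE1, an NADH dehydrogenase that faces the cytosol, at 0.48. CCAAT, the core of the Hap complex that activates respiratory genes, was in 88.2% of the 34 promoters and in 62.4% of the promoters of all tested genes. COX4 had 0 matches in its 500 bases and QCR10 had 1.

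The tricarboxylic acid cycle was split. Of 18 members 12 were lower and 4 higher (median -0.45). The steps from citrate to 2-oxoglutarate were the ones that rose: IDH1 had 583, 748 and 678 CPM against 149, 154 and 170, IDH2 had 756, 955 and 820 against 204, 200 and 253, and aconitase ACO1 had 1284, 1756 and 1402 against 390, 384 and 386. FUM1, fumarase, was the other called higher, at 0.58. IDH1, IDH2 and ACO1 did not overlap between the strains and rose by 2.09, 1.94 and 1.94 (SE 0.09 for each). SDH2, the iron-sulphur subunit of succinate dehydrogenase, had 65.4, 86.6 and 78.3 CPM against 172, 179 and 179 and was the most lowered, at -1.19 (SE 0.10). LPD1, dihydrolipoamide dehydrogenase, was at -0.73 and the minor citrate synthase CIT3 at -0.76. Citrate synthases CIT2 and CIT1 were at -0.70 and -0.47. CIT1, CIT2 and FUM1 were chosen after their values were seen.

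The mitochondrially encoded genes were divided in a way no nuclear list was. Their share of the sense reads was 0.0262% to 0.0310% in Med16/Taf13-AID and 0.0473% to 0.0578% in Med16/Spt20-AID, which do not overlap (exact permutation p = 0.10, two-sided, the smallest that 3 against 3 allows). Of 18 identifiers with more than 9 reads in Med16/Spt20-AID, 7 had no read in any Med16/Taf13-AID DMSO library, 5 had 1 to 5 reads in all and 6 had more. AI1, an intron-encoded protein of COX1, had 0, 1 and 0 reads against 1181, 1143 and 1800, so the single read puts its normalized level at 0.0644% of the other strain (95% exact interval 0.00163% to 0.359%). AI2, from the next intron, had 2, 2 and 1 reads against 549, 539 and 837. SCEI, the omega intron endonuclease I-SceI of the large rRNA gene, had 0 reads in each library against 197, 230 and 260, which against a floor of 3 counts over the group is at least 86.3-fold lower. COX1 was absent against 39, 36 and 67 reads (at least 17.8-fold lower), ATP6 against 8, 17 and 27 (at least 6.53-fold lower) and COB had 1, 0 and 0 reads against 17, 14 and 25. The intervals and floors cover counting error only.

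On the same genome 4 of the 12 tested identifiers were called higher and 8 lower, and COX2 and COX3 were among the higher. Q0297 had 45, 60 and 71 reads against 20, 6 and 10, and Q0255 had 12, 34 and 10 against 4, 5 and 9. COX2 had 100, 136 and 105 CPM in Med16/Taf13-AID against 18.2, 13.2 and 19.4, and COX3 had 119, 123 and 107 against 11.7, 7.96 and 10.3. All libraries of Med16/Taf13-AID were higher, with log2 fold changes of 2.75 (SE 0.14) and 3.55 (SE 0.14). OLI1, subunit 9 of the ATP synthase, had 37, 44 and 34 reads against 125, 115 and 162 (log2 fold change -0.40, adjusted p = 0.0467), a call that was lost under most alternatives, among them DESeq2's test (adjusted p = 0.128), the fit of 9 libraries (adjusted p = 0.207) and each library left out except replicate 2 of Med16/Spt20-AID (-0.32 to -0.43 in the fits that lost it). VAR1, the mitochondrially encoded ribosomal protein, had 3, 9 and 6 reads against 3, 3 and 4. OLI1, VAR1, COX1, COB, ATP6, Q0182, Q0255 and Q0297 were chosen for naming after their values were seen. In R64 coordinates of the mitochondrial genome, the genes with at most 5 reads start at 13818 (COX1 and the intron genes AI1 to AI4), 24156 (AI5_BETA, also within COX1), 28487 (ATP6), 36540 (COB) and 61022 (SCEI), while OLI1 starts at 46723, VAR1 at 48901, COX2 at 73758 and COX3 at 79213. From COX1 to COB no gene that kept more reads lay between those nearly without them. Among those with coordinates SCEI stood apart, beyond OLI1 and VAR1, so with this intron gene they did not form 1 continuous block. Q0182, with 0, 1 and 0 reads against 8, 8 and 17, has no coordinates in R64 and could not be placed. That map may differ from the gene order of these strains. The 3 auxin-treated libraries of Med16/Taf13-AID showed the same absences, with 0 reads of COX1, ATP6 and SCEI, and over all 6 libraries of the strain AI1 had 9 reads, against 919 to 1899 in each of the other 12 libraries of the series.

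**Figure D4:**
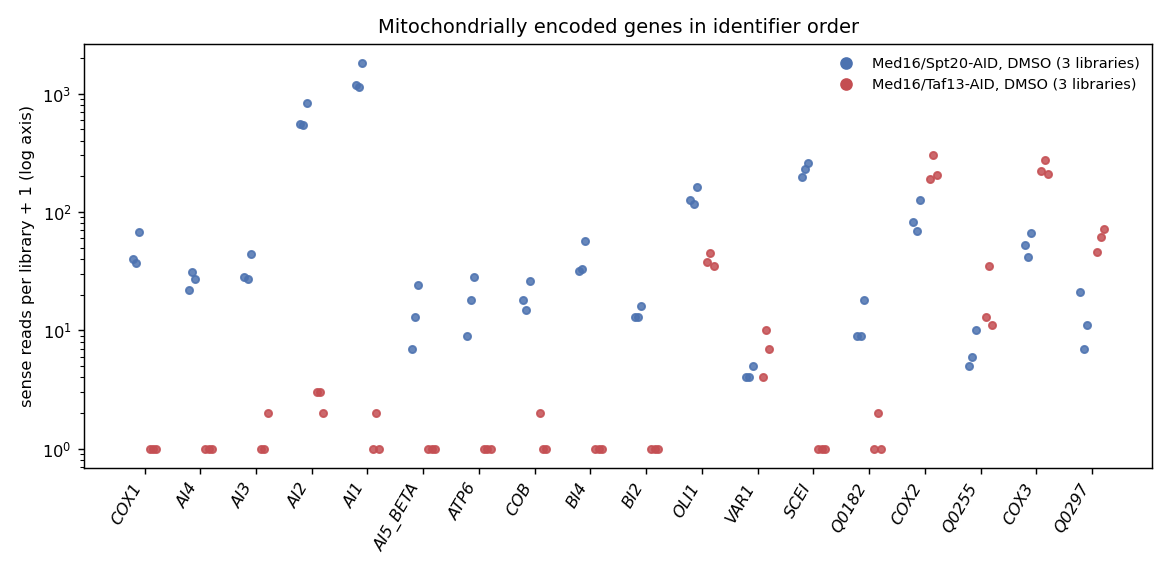
Sense reads plus 1, on a log axis, of the mitochondrially encoded identifiers with more than 9 reads in either strain, in each DMSO library (points). SCEI has 0 reads in all 3 Med16/Taf13-AID libraries and 197, 230 and 260 in Med16/Spt20-AID, while COX3 has 222, 274 and 207 against 52, 41 and 66.

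Sugar transport and stress genes were mostly lower. Among hexose transporters, kinases and their sensors, 11 of 18 were lower and 2 higher (median -0.69). HXT4, a transporter induced at low glucose, had 78.2, 146 and 110 CPM against 527, 574 and 571 (log2 fold change -2.31, SE 0.12), and HXK1, hexokinase I, had 99.1, 129 and 147 against 348, 370 and 352 (log2 fold change -1.51, SE 0.10). The strains did not overlap at either gene, although the Med16/Taf13-AID libraries were themselves spread. HXT7 was at -1.21, and the higher members were STD1 at 0.49 and HXT2 at 0.31, a call lost without replicate 2 of Med16/Taf13-AID (0.11, adjusted p = 0.206). Of 40 general stress genes of Msn2 and Msn4, 21 were lower and 7 higher (median -0.42), with the small heat shock protein HSP26 at -1.44 and the transaldolase NQM1 at -1.29. HSP12, a membrane protein of the same regulon, ran against the list with 70.2, 30.1 and 55.5 CPM against 12.6, 8.35 and 11.1 (log2 fold change 2.26, SE 0.22), and DDR48 at 1.08 and XBP1 at 0.86 were also higher. Proteasome genes were lower at 23 of 37 and higher at 1 (median -0.24), the most lowered being PUP2 at -0.56, and the 1 raised gene was their activator RPN4 at 0.45.

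Cell surface genes were higher. Of 30 cell wall proteins and synthases 24 were higher and 2 lower (median 0.55), with the protease YPS3 at 1.63, the glucan synthase GSC2 at 1.31 and the wall protein PIR3 at 1.21. Daughter-cell and separation genes, which act when the septum is resolved, were higher at 10 of 14 and lower at 0 (median 0.34). FLO11 (YIR019C, chrIX:389572-393675), the flocculin needed for adhesion and invasive growth, had 751, 478 and 531 CPM in Med16/Taf13-AID against 6.54, 6.80 and 6.25 in Med16/Spt20-AID. It was high in each library of the first strain and low in each of the second, at a log2 fold change of 6.48 (SE 0.16, adjusted p = 4.14e-20). Of the 7 genes in the flocculin list 4 were higher and 0 lower, among them FLO5 at 0.79 and, named after their values were seen, FLO1 at 0.85 and FLO10 at 0.72. FLO8, an activator of FLO11 also chosen after the fact, was at -0.03 (adjusted p = 0.84). The flocculins share repeats, so reads of single members are less certain, and with both strands counted FLO5 was at 0.16 (adjusted p = 0.309) and FLO1 turned to -0.13, a gene whose call was also lost without replicate 2 of Med16/Taf13-AID (0.73). The call of FLO10 was lost without replicate 3 of Med16/Taf13-AID (0.57), and a length and GC correction ended those of FLO1 (0.18), FLO5 (0.39) and FLO10 (0.30). BSC1 rose by 2.35, from 45.8, 46.2 and 81.0 CPM to 275, 342 and 279, next to PRM7 on chromosome IV, which was also at least 2-fold higher.

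PDR5, the multidrug ABC pump, had 6895, 7187 and 6461 CPM against 1133, 1298 and 1200, with no overlap and a log2 fold change of 2.50 (SE 0.09). Of the 14 genes of the Pdr1 list 9 were higher and 2 lower (median 0.51), and the activator PDR3 was at 1.16 and the pump PDR15 at 1.13. SNQ2, another target pump named after its value was seen, was at -0.06 (adjusted p = 0.57). MCH5, the riboflavin transporter, had 679, 718 and 699 CPM against 101, 94 and 110, and SRX1, sulfiredoxin and a member of the oxidative stress list, in which 9 of 22 genes were higher and 7 lower, 72.9, 109 and 95.5 against 11.3, 13 and 12.2. ADH7, an NADPH-dependent alcohol dehydrogenase, had 44.5, 39.5 and 50.8 against 4.73, 5.44 and 6.40. All 3 genes were non-overlapping, at 2.78, 2.93 and 2.99. ECM13 rose by 2.39.

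AZR1 (YGR224W, chrVII:942806-944647), a plasma membrane transporter of azole resistance, was the most lowered nuclear gene tested. It had 6.96, 4.04 and 6.74 CPM against 516, 491 and 498, with a log2 fold change of -6.42 (SE 0.14, adjusted p = 1.09e-21), and the libraries within each strain were close. ARO5 had 32.1, 30.1 and 30.6 CPM against 244, 252 and 253 and fell by 3.01. YLL056C fell by 2.39 and YLR046C by 2.17.

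Metal and sulphur genes were mixed. The zinc transporter ZRT1 had 290, 276 and 295 CPM against 98.5, 81.8 and 92.1 (log2 fold change 1.66, SE 0.08), while only 3 of the 11 zinc regulon genes were higher and 0 lower. Of 29 iron uptake genes 14 were lower and 4 higher (median -0.36), with the siderophore transporters ENB1 at -1.03 and SIT1 at -1.02 and the wall mannoprotein FIT2 at -1.76. Sulphur genes were divided, at 14 of 31 higher and 7 lower, with SAM1, an S-adenosylmethionine synthetase, at 1.32, CYS3, cystathionine gamma-lyase, at 1.14 and the sulphate permease SUL1 at -1.50.

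Transcripts of the tagged subunits were checked in every library. TAF13 had 49, 59 and 43 reads in Med16/Taf13-AID, where it carries the tag, and 155, 169 and 220 in Med16/Spt20-AID, which is 26.2, 26.5 and 22.3 CPM against 34.9, 32.8 and 34.4. It was lower in all 3 libraries by 0.44 (SE 0.14, adjusted p = 0.0129), a call lost with both strands counted (-0.25, adjusted p = 0.132), after thinning to the smallest library (-0.32, adjusted p = 0.128) and without replicate 3 of Med16/Taf13-AID (-0.37, adjusted p = 0.0798). SPT20, tagged in the other strain, had 153, 144 and 128 CPM in Med16/Taf13-AID and 149, 146 and 135 in Med16/Spt20-AID, which overlapped (log2 fold change -0.02, adjusted p = 0.897). SIN4 (MED16), tagged in both, had 221, 232 and 233 CPM against 179, 194 and 200, with no overlap and a log2 fold change of 0.26 (SE 0.08, adjusted p = 0.00708), which turned to -0.059 with the absolute spike-in factors.

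Other subunits of these complexes mostly differed by small amounts, as most tested genes did. Of 25 Mediator genes 7 were higher and 7 lower, near the share over all genes, with MED8 at -0.55. Their quartiles were -0.27 and 0.20, where those of all tested genes were -0.27 and 0.26. Among 20 SAGA genes 3 were higher and 4 lower, TRA1, the activator-binding subunit it shares with NuA4, being at 0.66. Among 15 TFIID genes 4 were higher and 1 lower, which is TAF13 itself, and SPT15, the gene of TBP, was at 0.37. Near the tagged loci, the 2 genes on either side of each were read. At TAF13 on chromosome XIII, VPS9, which is convergent with it, was at -0.40 (adjusted p = 0.000366) and TSL1 at -0.42 (adjusted p = 0.0301), a call lost without replicate 1 of Med16/Taf13-AID (-0.15) and without replicate 1 or 2 of Med16/Spt20-AID (-0.43 and -0.31), while ARG81 and YML096W were at 0.12 and 0.14 and did not pass the test. At SPT20 on chromosome XV, DCP1, downstream of the tag, was called at 0.27 (adjusted p = 0.0368), a call lost without replicate 1 or 3 of Med16/Taf13-AID (0.16 and 0.28) and without replicate 2 or 3 of Med16/Spt20-AID (0.27 and 0.21), and GRE2, PEX11 and PSF3 were at 0.01, 0.10 and -0.37 without passing. At SIN4 on chromosome XIV, which is tagged in both strains, YNL234W just downstream was at 0.94 (adjusted p = 2.96e-07), YTP1 upstream at -0.79, and KEX2 and BNI4 at 0.17 and -0.07 without passing. YNL234W had 95.4, 97.3 and 84.0 CPM against 42.4, 46.2 and 55.1, which did not overlap.

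Mating type and marker genes were read as a check of the strains. STE2, the alpha-factor receptor of a cells, had 682, 598 and 665 CPM in Med16/Taf13-AID and 831, 817 and 818 in Med16/Spt20-AID, and the alpha-cell pheromone gene MF(ALPHA)1 had at most 4 reads in any of the 6 libraries. BAR1, an a-specific protease gene, had 0 reads in all 6. Of the 6 tested a-specific genes 3 were lower and 0 higher, including AGA2 at -0.40, and of the 2 tested alpha-specific genes 1 was lower. MF(ALPHA)1 and BAR1 were chosen after their values were seen. Pheromone response genes were lower at 13 of 26 and higher at 4 (median -0.24), with FUS1, needed for cell fusion, at 45.0, 39.5 and 40.5 CPM against 129, 144 and 136 (log2 fold change -1.72, SE 0.11). Of the 6 tested marker genes 3 were lower and 1 higher, with HIS3 at -1.62, LYS2 at -0.64, ADE2 at -0.57 and URA3 at 0.22 (adjusted p = 0.0427), whose libraries overlapped between the strains. The call of URA3 was lost without replicate 2 or 3 of Med16/Spt20-AID (0.16 and 0.24), without replicate 1 or 3 of Med16/Taf13-AID (0.17 and 0.21) and with the absolute spike-in factors (-0.10). The tags carry a histidine marker that the sources name differently for Med16/Spt20-AID, and reads of the native HIS3 gene and of a marker were not separated.

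Another untreated strain, Spt20-AID, in 3 DMSO libraries that share the project code of Med16/Spt20-AID, allowed each double strain to be set beside it in a fit of 9 libraries. Med16/Taf13-AID differed from it at 1554 genes higher (27.9%) and 1329 lower (23.8%), and Med16/Spt20-AID at 1566 higher (28.1%) and 1279 lower (22.9%). Both comparisons use the same Spt20-AID libraries, so their values are given only side by side. PHO84 was at 5.89 in Med16/Taf13-AID and at -2.6 in Med16/Spt20-AID against Spt20-AID on the log2 scale. For PDR5 the values were 2.45 and -0.06, for ARG1 -4.25 and -0.23, for FLO11 8.08 and 1.59, and for COX4 -1.80 and -0.45. At these genes, picked for their difference between the double strains, Med16/Taf13-AID lay further from Spt20-AID than Med16/Spt20-AID did.

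The ribosome lists showed the other order. Biogenesis factors had a median of 0.06 for Med16/Taf13-AID against Spt20-AID, with 31 members higher and 16 lower, and of -0.59 for Med16/Spt20-AID, with 0 higher and 112 lower. Small subunit proteins were at -0.26 and -0.58 and large subunit proteins at -0.37 and -0.65, so both double strains lay under the single strain. Daughter-cell and separation genes had medians of -0.28 and -0.62. Of these, 4 were higher and 7 lower in Med16/Taf13-AID, and 0 higher and 10 lower in Med16/Spt20-AID. Cell wall proteins were at 0.29 and -0.39. The phosphate regulon was higher at 14 members and lower at 0 in Med16/Taf13-AID, and higher at 3 and lower at 3 in Med16/Spt20-AID, and nuclear respiratory genes were lower at 31 and 16. HXK1 was at -0.40 in Med16/Taf13-AID and 1.10 in Med16/Spt20-AID, so its difference between the double strains sat mostly on the Med16/Spt20-AID side. IDH1 lay on both sides, at 1.02 and -1.07. General stress genes were higher at 18 and lower at 2 in Med16/Taf13-AID against Spt20-AID (median 0.37). In Med16/Spt20-AID they were higher at 31 and lower at 5 (median 0.77), so the list was not lowered against the single strain in either. HSP26 was at 0.14 and 1.57 and HSP12 at 0.21 and -2.06, and neither gene was called in Med16/Taf13-AID against Spt20-AID. The double strains differ from Spt20-AID by the tagged MED16 as well. Med16/Taf13-AID also differs from it by the tag on TAF13, by an SPT20 without the tag and by the sequencing run.

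**Figure D5:**
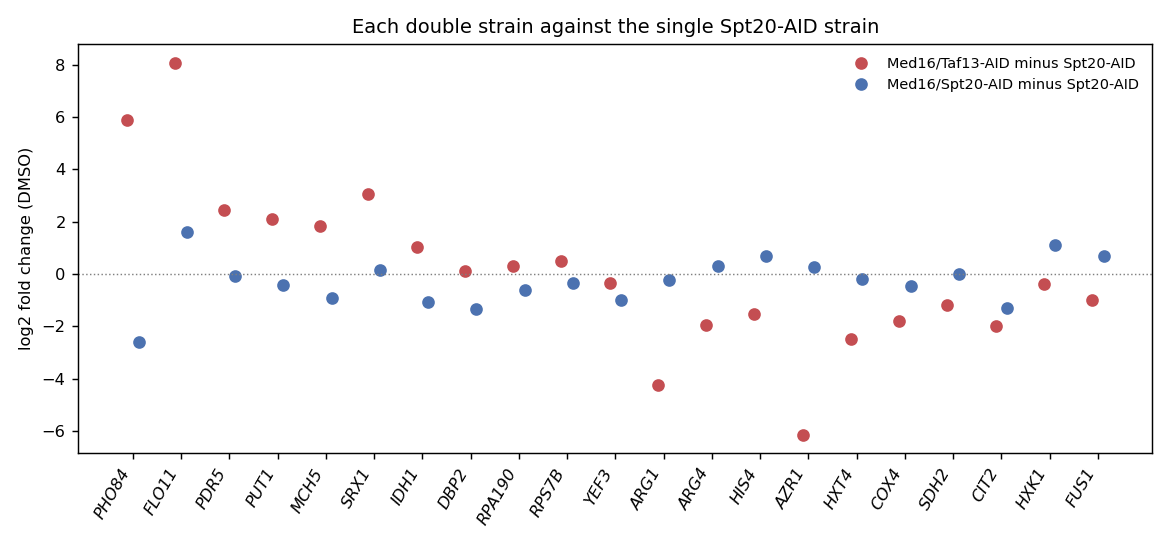
Log2 fold change of 21 named genes in each double strain against the single Spt20-AID strain, all in DMSO, from 1 fit of 9 libraries, so both series of points share the Spt20-AID libraries. PHO84 is at 5.89 and -2.6 and PDR5 at 2.45 and -0.06 in Med16/Taf13-AID and Med16/Spt20-AID.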

How the data were processed

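The labelled RNA of the 6 libraries was sequenced from stranded kits, and the authors aligned the reads to sacCer3 with STAR 2.6.1a and deposited raw counts per gene, of uniquely mapped reads, for both strands and each strand. The sense column was used, and the 4 rows per library that name no gene were left out. Reads mapping to several places were 43.1% to 49.2% of each library.

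Genes averaging 10 or more sense reads per library entered the test in edgeR 4.0.16 (R 4.3.3) with TMM scaling and its quasi-likelihood test, with Benjamini-Hochberg adjustment over all 5577 genes. Standard errors were derived from the F statistic of each gene. The samples are biological triplicates of 1 strain each, so p-values measure the spread between cultures and not between strain isolates. Replicate pairs differed by more than sampling noise (chi-square per degree of freedom 1.94 to 4.37). Alternatives were DESeq2 1.42.0, its size factors, the spike-in size factors of the study (recovered by least squares from 1396 mean counts), other count filters, both strands, larger fits of 9 and 18 libraries, thinning, a 1.5-fold threshold, a length and GC correction, a replicate block and each library left out. The antisense test was added after seeing the data. Of 6692 identifiers 6008 are in the R64 annotation (sacCer3), whose genome gave the sequences.

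Named genes are the 12 largest increases and decreases among called genes that average 50 or more reads and do not overlap, the tagged genes with 2 neighbours on either side, and up to 3 called members per list and direction. The comparison, the gene lists and this rule were chosen with earlier results of these data known. 1 gene of the amino acid list is counted there but not reported by name here.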

Additional observations from a re-analysis of the deposited data

Results flagged for a closer look

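The opposite strand was outside the comparisons above. With the effective library sizes of the sense counts, 2032 genes had a mean antisense count of at least 10, and 327 were higher (16.1%) and 255 lower (12.5%) in Med16/Taf13-AID by edgeR's quasi-likelihood test. The genes that follow were chosen after their values were seen.

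At PHO84 the antisense reads ran opposite to the sense reads. They numbered 19, 36 and 19 in Med16/Taf13-AID, which is 10.2, 16.2 and 9.86 CPM, and 214, 299 and 336 in Med16/Spt20-AID, which is 48.2, 58.1 and 52.5 CPM. The strains did not overlap, and the antisense log2 fold change was -2.11 (SE 0.18). In Med16/Spt20-AID the antisense reads outnumbered the 5, 8 and 19 sense reads, and in Med16/Taf13-AID the sense reads outnumbered the antisense.

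AZR1 and MTH1, a regulator of glucose sensing, showed the converse. Antisense reads of AZR1 were 23.6, 26.5 and 33.7 CPM against 2.03, 0.971 and 3.44, at a log2 fold change of 3.62 (SE 0.27), where sense reads were lower in Med16/Taf13-AID. MTH1 had 46.6, 52.0 and 54.0 antisense CPM against 6.08, 4.66 and 5.78, at 3.20 (SE 0.18), with the sense strand at -1.14 and both strands together at 0.17. In both genes all Med16/Taf13-AID libraries were above all Med16/Spt20-AID libraries on the antisense strand.

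At COX2 and COX3, which were higher on the sense strand, antisense reads were higher too. COX2 had 40, 53 and 32 antisense reads against 0, 2 and 8, a log2 fold change of 4.98 (SE 0.37), and COX3 had 27, 19 and 26 against 0, 1 and 3, a log2 fold change of 5.41 (SE 0.48). The Med16/Spt20-AID libraries held only 0 to 8 of these reads each, so the size of these folds is uncertain.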

How the results depend on the processing

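Of 5577 genes, 1502 were higher and 1443 lower with TMM scaling. With the spike-in factors the median gene was at -0.34 and the counts were 419 and 2808, and after centring on the median gene 1119 and 844. A fold of at least 1.5 left 518 and 447. Leaving out 1 library gave 1322 to 1457 higher and 1155 to 1400 lower. The other alternatives stayed within 1.5 times, among them DESeq2's own test with 1415 and 1126.

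With the absolute spike-in factors, members called higher were 71 for ribosome biogenesis, 3 for small subunit and 1 for large subunit ribosomal proteins, 1 for translation factors, 14 for the cell wall and 3 for daughter-cell genes, and 22 iron genes were lower. After centring they were 38 for large subunit proteins, and 6 proteasome genes were lower. At a fold of at least 1.5, members higher were 5, 1, 2, 15 and 3 for small subunit proteins, large subunit proteins, translation factors, cell wall and daughter-cell genes, and members lower were 23 for amino acids, 12 for general stress, 0 for the proteasome, 4 for the tricarboxylic acid cycle and 8 for iron. With both strands counted, the mitochondrial share in Med16/Taf13-AID was 0.0335%.

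With 1 library left out in turn, the phosphate regulon had 13 to 14 members higher, biogenesis factors 110 to 114, small subunit proteins 34 to 45, large subunit proteins 44 to 59, translation factors 18 to 22, the cell wall 22 to 24, daughter-cell genes 9 to 10 and Pdr1 genes 7 to 9. Members lower were 37 to 45 for amino acids, 30 to 31 for nuclear respiration, 12 to 12 for the tricarboxylic acid cycle, 8 to 10 for hexose genes, 16 to 23 for general stress, 16 to 24 for the proteasome and 13 to 15 for iron.

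Of the genes near the tagged loci, directions turned with the absolute spike-in factors at SIN4 (-0.059), GRE2 (-0.31), DCP1 (-0.064), PEX11 (-0.23), ARG81 (-0.20), YML096W (-0.18) and KEX2 (-0.16), and so it did at PHO86 (-0.11), PHO8 (-0.23) and URA3 (-0.10). SPT20, near 0, was at 0.0020 after centring and ranged from -0.0697 to 0.052 with 1 library left out. GRE2 was at -0.0047 after thinning and from -0.042 to 0.061 with 1 library left out, and PEX11 from -0.017 to 0.22. FLO8, also near 0, was at 0.037 after thinning and from -0.11 to 0.041 with 1 library left out. With both strands counted, FLO1 was at -0.13 and MTH1 at 0.17. PHO8 was at -0.020 with a length and GC correction and at -0.018 with the block added.

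Same-numbered samples of the strains did not deviate together (correlations of -0.0106, 0.109 and -0.00298 over 5182 genes), so the numbers are not a pairing. A replicate block gave 1502 genes higher and 1446 lower, and with a length and GC correction 1407 and 1366. The smaller depth of Med16/Taf13-AID limits genes with few reads, and its thinned comparison at equal depth had 1365 higher and 1256 lower.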
